A study of Mus musculus with 69 samples.

Results

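Hepcidin, the genes that take up, store and release iron, and the metallothioneins were followed in mouse liver after 3 compounds that injure liver or lung. The members were 9 named genes, taken wherever a probe set of the deposited table carried the symbol, and 8 of the 9 had one among 17306 probe sets. These were Hamp (probe set 84506_at), Hamp2 (66438_at), Tfrc (22042_at), Slc39a14 (213053_at), Fth1 (14319_at), Slc40a1 (53945_at), Mt1 (17748_at) and Mt2 (17750_at). Bmp6, the ligand that raises hepcidin when liver iron rises, was not analysed here.

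Liver RNA of male C57BL/6 mice, 10 weeks old, was hybridised to Affymetrix arrays after 1 oral gavage. The low, medium and high doses of acetaminophen (APAP), a pain reliever toxic to hepatocytes in excess, were 168.75, 225 and 300 mg/kg. Those of isoniazid (INZ), used against tuberculosis, were 22, 44 and 88 mg/kg. Paraquat (PQ), a weed killer that generates superoxide, was dosed at 12.5, 25 and 50 mg/kg. All were sampled at 1 day, and the high doses also at 2 days, each against vehicle mice of the same day. There were 69 arrays of as many mice in 14 groups, with 4 arrays for medium-dose PQ and 5 for every other group. Vehicle mice were labelled for APAP alone but served all 3 compounds, so the 12 comparisons with vehicle share their controls. The tissue was part of the left lateral lobe, so the values are those of whole liver, in which fewer cells of a type and less RNA per cell cannot be told apart.

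Hepcidin is a peptide hormone of the hepatocyte that blocks ferroportin, the iron exporter encoded by Slc40a1, and so lowers plasma iron. Its gene is driven by BMP signals through SMAD factors when iron is plentiful, and by interleukin 6 through STAT3 in inflammation. The mouse has a second copy, Hamp2, whose peptide does not act on iron the way that of Hamp does. Iron enters the hepatocyte bound to transferrin through the transferrin receptor (Tfrc), or unbound through the metal transporter ZIP14 (Slc39a14), which also carries zinc, and it is stored in ferritin, whose heavy chain is Fth1. The metallothioneins Mt1 and Mt2 are small cysteine-rich proteins that bind zinc and copper and are induced in liver by metals, glucocorticoids, inflammation and oxidative stress.

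The 4 promoters shown here belong to the pairs of neighbouring genes on which the results turn. RefSeq promoter windows on GRCm38.p6, 250 bases before to 50 after a gene's start, were held for 7 of the 9 members, in 9 windows; Slc40a1 and Slc39a14 had none. The 250 bases before each start are printed 5′ to 3′ on the strand of the gene. Capitals mark matches to 4 motifs: the metal response element core TGCACNC or TGCGCNC, the BMP response element GGCGCC, the STAT element TTCNNNGAA and the antioxidant response element core TGACNNNGC. Hamp lies on the minus strand at chr7:30944030-30944279, Hamp2 on the minus strand at chr7:30924182-30924431, Mt1 on the plus strand at chr8:94178839-94179088 and Mt2 on the plus strand at chr8:94172368-94172617.
Hamp: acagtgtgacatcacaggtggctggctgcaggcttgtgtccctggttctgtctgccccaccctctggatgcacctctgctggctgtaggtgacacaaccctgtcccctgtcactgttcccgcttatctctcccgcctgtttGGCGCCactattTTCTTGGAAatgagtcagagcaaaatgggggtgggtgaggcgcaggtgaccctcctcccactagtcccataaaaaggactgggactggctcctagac
Hamp2: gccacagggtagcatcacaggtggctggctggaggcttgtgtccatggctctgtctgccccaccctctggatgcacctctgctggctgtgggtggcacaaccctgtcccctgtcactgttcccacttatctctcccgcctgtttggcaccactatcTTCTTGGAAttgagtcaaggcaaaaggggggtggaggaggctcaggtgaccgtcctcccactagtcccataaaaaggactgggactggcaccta
Mt1: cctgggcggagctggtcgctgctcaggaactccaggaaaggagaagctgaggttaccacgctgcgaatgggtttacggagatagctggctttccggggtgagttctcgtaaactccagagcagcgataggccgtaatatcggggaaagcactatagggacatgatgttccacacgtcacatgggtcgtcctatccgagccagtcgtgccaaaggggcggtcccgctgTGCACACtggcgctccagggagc
Mt2: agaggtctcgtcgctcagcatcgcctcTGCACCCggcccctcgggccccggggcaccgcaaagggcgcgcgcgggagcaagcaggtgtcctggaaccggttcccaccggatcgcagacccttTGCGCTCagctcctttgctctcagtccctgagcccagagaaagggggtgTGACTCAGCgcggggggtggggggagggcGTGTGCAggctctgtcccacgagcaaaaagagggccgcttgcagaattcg
The windows of Hamp and Hamp2 aligned over 297 bases, of which 276 (92.9%) were identical, with 6 gap columns. The Hamp window held 1 match to the BMP element and 1 to the STAT element, and the Hamp2 window held the STAT match alone. The BMP element of Hamp is broken in Hamp2 by the substitution G145A (base in Hamp, position from the 5′ end of the Hamp window, base in Hamp2). The Mt1 window held 3 metal response element cores and that of Mt2 held 4, of which 1 and 3 lie in the printed bases; Mt2 also held 1 antioxidant element core.

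Such matches were searched on both strands, with a palindrome counted as 1 site, and describe letters, not bound sites. Of all 32851 windows, 25.7% held at least 1 metal response element core, 1.97% at least 3 and 0.517% at least 4. The BMP element was found in 11.9% of windows, the STAT element in 8.3% and the antioxidant core in 12.4%.

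Before the results, 3 arrays must be named because they stood apart from their groups. Replicate 1 of the low APAP group and replicate 1 of the high PQ group at 1 day were among the 6 highest of all arrays for Mt1, Mt2 and Slc39a14. Replicate 1 of the high APAP group at 1 day lay within the vehicle range for Hamp2, Mt1, Mt2 and Slc39a14, but above it for Hamp and below it for Fth1. Replicate 4 of that group also lay within the vehicle range for Mt1, Mt2 and Slc39a14 and was kept. The 3 arrays were picked with their response known, so leaving them out widens these differences by construction. Values without them are given as sizes with no test and support nothing. Array medians ranged from 4.23 to 4.56 log2 units. Of the hepatocyte markers, 7 of 7 were measured, and their summed signal lay between 16.07 and 16.15 log2 units in vehicle livers at 1 day and between 15.87 and 16.18 after high-dose APAP. Values below are deposited log2 signals, given by array in replicate order and then as mean ± SD. Replicates follow the order of the records, in which arrays with title numbers above 190 come first. Replicate 1 of high APAP and of high PQ at 1 day had such numbers, and no vehicle array did. The meaning of these numbers is not stated. Changes are differences of log2 means with the standard error (SE) of limma, and a gene was called at an adjusted p under 0.05 over all 17306 probe sets.

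High-dose APAP at 1 day was the comparison with vehicle in which members were called. Slc39a14, Mt1 and Mt2 rose and Hamp2 fell, while Hamp, Tfrc, Fth1 and Slc40a1 did not pass the test. That is 3 of 8 members higher, against 14.8% of all probe sets, and 1 of 8 lower, against 15.3% (30.1% in either direction). The share of members called higher was thus above that of the array as a whole and the share called lower near it. With 8 genes these shares are coarse, and the difference was not tested. The median change of the members was 0.20, against -0.05 over all probe sets. In the other 11 comparisons no member was called by limma.

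**Figure D1:**
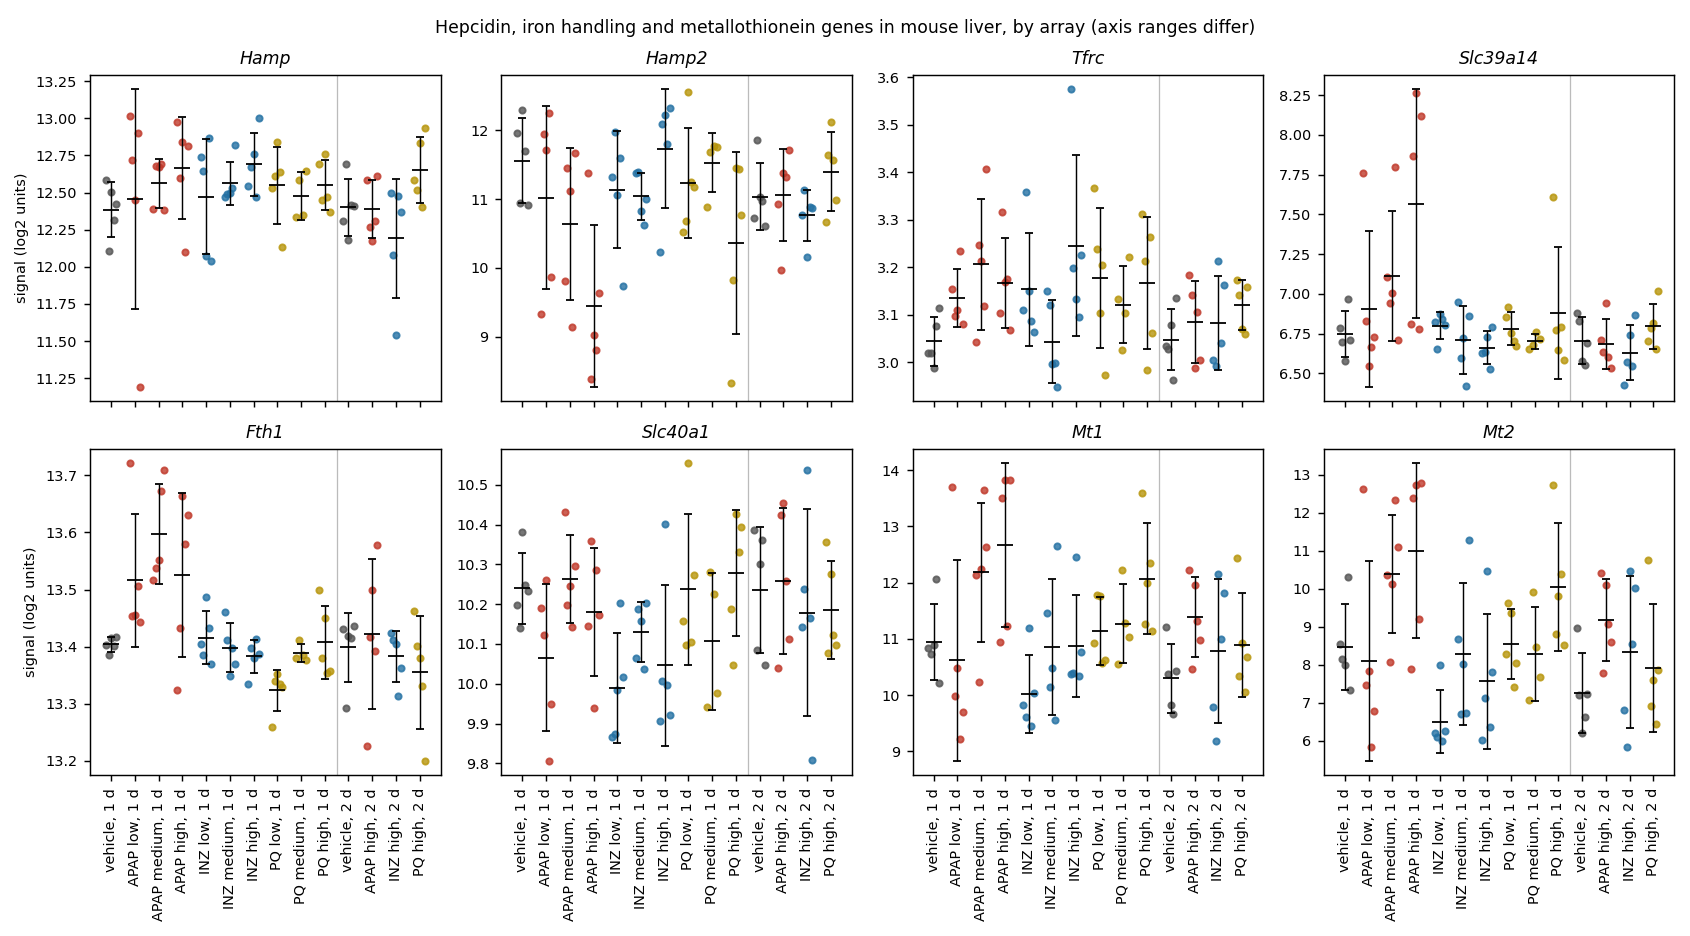
Log2 signal of the 8 members (1 panel each, with its own axis range) in the 69 arrays, by group; points are arrays, and bars are the mean ± SD. Hamp2 is lowest and Slc39a14, Mt1 and Mt2 are highest in the APAP 300 mg/kg group at 1 day, with group means of 9.45, 7.57, 12.67 and 11.00, while the Hamp group means stay between 12.19 and 12.69.

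Hamp, the gene of active hepcidin, kept a high signal throughout. Its vehicle arrays at 1 day read 12.58, 12.11, 12.50, 12.31 and 12.42 (12.39 ± 0.19, n = 5), and after high-dose APAP they read 12.97, 12.59, 12.84, 12.10 and 12.81 (12.67 ± 0.34, n = 5). Of the treated arrays, 4 lay above and 1 below every vehicle array. The change was 0.28 (SE 0.19, 95% interval -0.11 to 0.67), with adjusted p = 0.28 in limma. Over all 14 groups the mean ran from 12.19 ± 0.40 in the high INZ group at 2 days to 12.69 ± 0.21 in the high INZ group at 1 day, and no comparison was called. The mean signal of Hamp was above that of 99.4% of probe sets, and whether changes are compressed at that level was not tested. The widest scatter was in the low APAP group (SD 0.74), where 1 array read 11.19 and the others 12.45 to 13.02.

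Hamp2, the other hepcidin gene, fell in the comparison in which Hamp did not pass the test. Its vehicle arrays at 1 day read 11.96, 10.94, 12.29, 11.70 and 10.91 (11.56 ± 0.62, n = 5). After high-dose APAP they read 11.38, 8.38, 9.03, 8.81 and 9.64 (9.45 ± 1.17, n = 5). Of the 5 treated arrays, 4 lay below every vehicle array, and the one that did not was replicate 1. The change was -2.11 (SE 0.52, 95% interval -3.16 to -1.07), which is 4.33-fold lower, with adjusted p = 0.0026 in limma. Without replicate 1 of high APAP, the array of this comparison among the 3 that stood apart, it was -2.60. The exact two-sided permutation test of these 5 against 5 arrays gave p = 0.0238, where the smallest possible is 0.0079.

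At lower doses the Hamp2 arrays split. In the medium APAP group they read 9.82, 11.45, 11.12, 9.14 and 11.67, of which 2 lay below every vehicle array (change -0.92, adjusted p = 0.33 in limma). In the low group they read 9.33, 11.95, 11.71, 12.26 and 9.87, again with 2 below every vehicle array (change -0.54, adjusted p = 0.82 in limma). The trend over the APAP doses, linear in mg/kg, amounted to -1.92 from vehicle to the high dose (SE 0.50, adjusted p = 0.0044 in limma), and 29.3% of all probe sets had a called trend. High-dose PQ at 1 day read 8.33, 9.83, 11.45, 11.44 and 10.78, with 3 of 5 arrays below every vehicle array. That change of -1.20 (SE 0.52) had an unadjusted p of 0.026 and an adjusted p of 0.78 in limma, and it did not pass the test.

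By 2 days Hamp2 was at the vehicle level. High-dose APAP arrays read 10.93, 9.97, 11.39, 11.32 and 11.71, against 10.73, 11.86, 11.03, 10.97 and 10.61 in vehicle, and the ranges overlapped almost fully (change 0.03, 95% interval -1.02 to 1.08). The effect at 2 days minus that at 1 day was 2.14 (SE 0.74), with adjusted p = 0.085 in limma, so the difference between days did not pass, as it did for 2.81% of all probe sets. It was called with limma's array weights, which give less weight to arrays that deviate from their group. Vehicle livers at 2 days averaged 11.04 ± 0.49, below those at 1 day by 0.52 (adjusted p = 1 in limma).

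The 2 hepcidin genes were also compared within each array, a test added after the values were seen. The Hamp2 signal minus the Hamp signal ranged from -1.51 to -0.21 in vehicle arrays at 1 day and from -4.21 to -1.59 after high-dose APAP, so the groups did not overlap. The difference of this difference was -2.39, and the exact two-sided permutation test gave p = 0.00794, the smallest possible, or 0.095 after Benjamini-Hochberg adjustment over the 12 comparisons. It ran from -2.80 to -2.14 when single arrays were left out. For single probe sets, 4.21% lay entirely below vehicle in this comparison. High-dose PQ at 1 day gave -1.36 and medium-dose INZ -0.69 (exact permutation p = 0.0476, adjusted 0.19, for each). Medium-dose APAP gave -1.10 (exact permutation p = 0.0635, adjusted 0.19). Every comparison at 1 day gave a negative value, from -2.39 to -0.13, and all of these share the same vehicle arrays. The 3 comparisons at 2 days gave -0.07 to 0.11. That adjusted p for high-dose APAP, 0.095, lay above 0.05, so the ratio describes unequal change of the 2 probe sets in these arrays only. It does not show that one of them did not change. The 2 genes are near-identical copies, and whether transcripts of one also bind the probes of the other was not tested.

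Slc40a1, which encodes the exporter that hepcidin closes, was level. Vehicle arrays at 1 day read 10.20, 10.14, 10.38, 10.25 and 10.23, and high-dose APAP arrays 10.15, 10.36, 9.94, 10.29 and 10.17 (change -0.06, 95% interval -0.27 to 0.15, adjusted p = 0.70 in limma). The 2 groups overlapped, and the group means of the whole series stayed between 9.99 and 10.28. The lowest mean was that of low-dose INZ, where arrays read 9.87, 9.87, 9.99, 10.20 and 10.02 (change -0.25, SE 0.10, unadjusted p = 0.018, adjusted p = 0.82 in limma). That difference did not pass the test, although 4 of 5 arrays lay below every vehicle array.

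Slc39a14, the transporter ZIP14 that takes free iron and zinc into the hepatocyte, rose after high-dose APAP. Vehicle arrays at 1 day read 6.79, 6.70, 6.58, 6.97 and 6.71 (6.75 ± 0.14, n = 5), and high-dose APAP arrays 6.81, 7.87, 8.26, 6.78 and 8.12 (7.57 ± 0.72, n = 5). Replicates 2, 3 and 5 lay above every vehicle array, and replicates 1 and 4 within the vehicle range. The change was 0.82 (SE 0.19, 95% interval 0.44 to 1.20), or 1.76-fold, with adjusted p = 0.0016 in limma. The exact two-sided permutation test gave p = 0.0556. The spread shared by all groups is smaller than that of the treated arrays, and in a fit of these 2 groups alone the adjusted p of limma was 0.084.

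Slc39a14 had a called trend with APAP dose, although the lower doses did not pass on their own. Medium APAP arrays read 7.11, 6.94, 7.01, 7.80 and 6.71, of which 3 lay above every vehicle array (change 0.36, adjusted p = 0.29 in limma). In the low group 1 array read 7.76 and the others 6.54 to 6.83, and in the high PQ group at 1 day 1 array read 7.61 and the others 6.58 to 6.79. The trend over APAP doses was 0.75 (SE 0.18, adjusted p = 0.0027 in limma). At 2 days the high APAP arrays read 6.71, 6.63, 6.94, 6.60 and 6.53, within or just outside the vehicle range of 6.55 to 6.88 (change -0.02). The difference between days was -0.84 (SE 0.27, adjusted p = 0.063 in limma) and did not pass, but it did with array weights. INZ changes ranged from -0.09 to 0.05.

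Tfrc, the receptor for transferrin-bound iron, could not be read above background with certainty. Its values lay between 2.95 and 3.57 log2 units, below the lowest array median of 4.23, and 27% of probe sets had a lower mean. Vehicle arrays at 1 day read 3.02, 3.02, 2.99, 3.08 and 3.11, and high-dose APAP arrays 3.10, 3.32, 3.17, 3.17 and 3.07. The difference of 0.12 (SE 0.07) was not called (adjusted p = 0.18 in limma). The exact two-sided permutation test gave p = 0.0397, and 0.0317 and 0.0476 at the medium and low APAP doses, before any adjustment. The highest group mean was that of high-dose INZ at 1 day, with 3.57, 3.20, 3.13, 3.09 and 3.23. That change of 0.20 had an unadjusted p of 0.0058 and an adjusted p of 0.86 in limma, so it did not pass.

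Fth1, the ferritin heavy chain, moved little, but its vehicle arrays were so alike that small shifts separated groups. Vehicle arrays at 1 day read 13.40, 13.38, 13.42, 13.40 and 13.42 (13.40 ± 0.013, n = 5). Low APAP arrays read 13.72, 13.45, 13.46, 13.51 and 13.44, and medium APAP arrays 13.52, 13.54, 13.55, 13.67 and 13.71. All 5 of each group lay above every vehicle array, a separation upward that 1.13% and 1.99% of probe sets also showed in these comparisons. High APAP arrays read 13.32, 13.43, 13.66, 13.58 and 13.63, of which 4 lay above and replicate 1 below every vehicle array.

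None of these changes of Fth1 was called. They were 0.11, 0.19 and 0.12 at the low, medium and high doses (SE 0.05 each), with adjusted p of 0.76, 0.087 and 0.076 in limma, which uses a spread wider than that of these vehicle mice. The exact two-sided permutation test gave p = 0.00794, the smallest possible, at the low and at the medium dose. The trend over APAP doses was called at 0.15 (SE 0.05, adjusted p = 0.021 in limma), but it was 0.06, with adjusted p = 0.33, when arrays were centred on their medians. Without the 3 arrays that stood apart the high-dose change was 0.17. Low PQ arrays, at 13.26 to 13.35, all lay below vehicle, as 0.647% of probe sets did (change -0.08, adjusted p = 1 in limma). Fth1 had a mean above that of 99.9% of probe sets, and compression at that level was not tested.

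The metallothioneins showed the widest scatter among the members. The SD of Mt2 within groups, 1.64 log2 units over the whole series, was larger than that of nearly all probe sets, and that of Mt1 was larger than 99.8% of them. Mt1 read 10.83, 10.73, 10.89, 12.06 and 10.22 in vehicle at 1 day (10.95 ± 0.68, n = 5) and 10.94, 13.51, 13.82, 11.23 and 13.83 after high-dose APAP (12.67 ± 1.45, n = 5). Again replicates 2, 3 and 5 were above every vehicle array, and replicates 1 and 4 among them. The change was 1.72 (SE 0.64, 95% interval 0.43 to 3.01), or 3.29-fold, with adjusted p = 0.037 in limma.

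Mt2 followed the same arrays with a wider range. It read 8.55, 8.15, 7.99, 10.32 and 7.34 in vehicle at 1 day (8.47 ± 1.12, n = 5) and 7.90, 12.39, 12.74, 9.20 and 12.79 after high-dose APAP (11.00 ± 2.29, n = 5). Vehicle replicate 4 was the highest of its group for both genes. The change was 2.54 (SE 1.01, 95% interval 0.52 to 4.55), or 5.80-fold, with adjusted p = 0.049 in limma. Exact two-sided permutation tests gave p = 0.0556 for Mt1 and p = 0.0794 for Mt2. Both calls were narrow: they were lost in a fit of the 2 groups alone (adjusted p = 0.089 and 0.10 in limma). They were also lost when treated replicate 2, 3 or 5, or vehicle replicate 1, 2, 3 or 5, was left out, with adjusted p from 0.06 to 0.13 for Mt1 and from 0.07 to 0.16 for Mt2. Without the 3 arrays that stood apart the changes were 2.15 and 3.31. Mt1 and Mt2 are close paralogs, and cross-hybridisation between their probe sets was not tested.

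Other groups held high metallothionein arrays without a call. Medium APAP arrays read 10.36, 8.07, 10.13, 12.32 and 11.09 for Mt2 (change 1.93, adjusted p = 0.29 in limma). In the low APAP group 1 array read 12.62 and the others 5.85 to 7.83. High-dose PQ at 1 day read 12.74, 8.82, 9.80, 10.39 and 8.51 (change 1.58, adjusted p = 0.79 in limma). The Mt1 changes in these 3 groups were 1.23, -0.33 and 1.12. Without the 3 arrays that stood apart, the low-dose APAP changes were -1.10 for Mt1 and -1.48 for Mt2.

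At 2 days the metallothionein differences after APAP were not called. Mt2 read 10.40, 7.78, 10.10, 9.07 and 8.59, against 8.96, 7.21, 6.20, 6.63 and 7.24 in vehicle, and 3 of 5 arrays lay above every vehicle array. The change of 1.94 (SE 1.01) had adjusted p = 0.29 in limma and p = 0.0238 in the exact permutation test. That of Mt1 was 1.09 (SE 0.64, adjusted p = 0.36 in limma, exact permutation p = 0.0397). The differences between days, -0.63 for Mt1 and -0.60 for Mt2, had 95% intervals of -2.45 to 1.19 and -3.45 to 2.25, wide enough to hold a doubling or a halving. Low-dose INZ had the lowest group mean of Mt2, with arrays at 6.20, 6.10, 7.99, 6.01 and 6.25 (change -1.96, adjusted p = 0.93 in limma, exact permutation p = 0.0238). Among the 96 exact tests of a member against vehicle, 13 had p under 0.05 before any adjustment for their number.

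**Figure D2:**
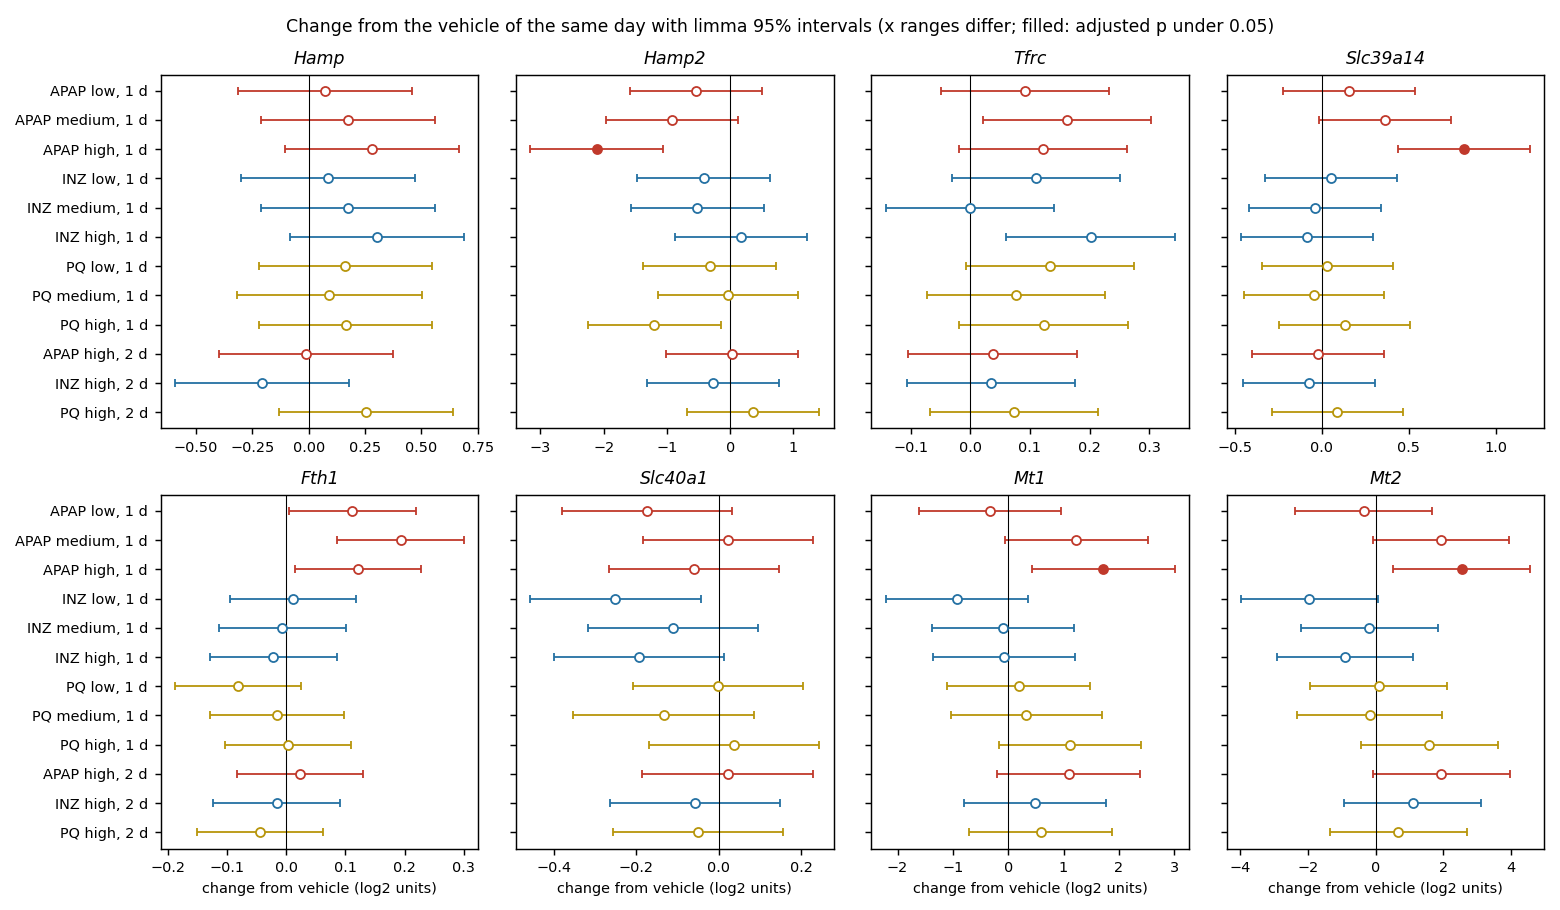
Change of each member (log2 units, horizontal) from the vehicle of the same day in the 12 treated groups, with 95% intervals of limma; filled points had an adjusted p under 0.05, and panels have their own ranges. The filled points are those of Hamp2 (-2.11), Slc39a14 (0.82), Mt1 (1.72) and Mt2 (2.54) after high-dose APAP at 1 day.

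The order of the group means was broad rather than stepped. For all 8 members, 0 of 13 neighbouring pairs in that order were further apart than the larger SD of the pair. The widest step for Hamp2 was 0.92, between high-dose PQ and high-dose APAP at 1 day, and for Slc39a14 0.45, between high-dose and medium-dose APAP. For Mt1 and Mt2 the first 4 places were taken by high APAP, medium APAP and high PQ at 1 day and high APAP at 2 days, and the last by low INZ.

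The same mice carried the extreme values of several members. The 6 highest arrays of all 69 were the same for Mt1, Mt2 and Slc39a14: replicates 2, 3 and 5 of high APAP, replicate 1 of low APAP, replicate 4 of medium APAP and replicate 1 of high PQ, all at 1 day. Of these 6, 5 were also among the 6 lowest for Hamp2. The remaining low Hamp2 array was replicate 4 of high APAP (8.81), whose Mt2 signal was 9.20 and Slc39a14 signal 6.78. For Fth1, 4 of the 6 highest arrays were shared with those of Mt2. These ranks come from the same livers and the same normalization and are a description, with no test.

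**Figure D3:**
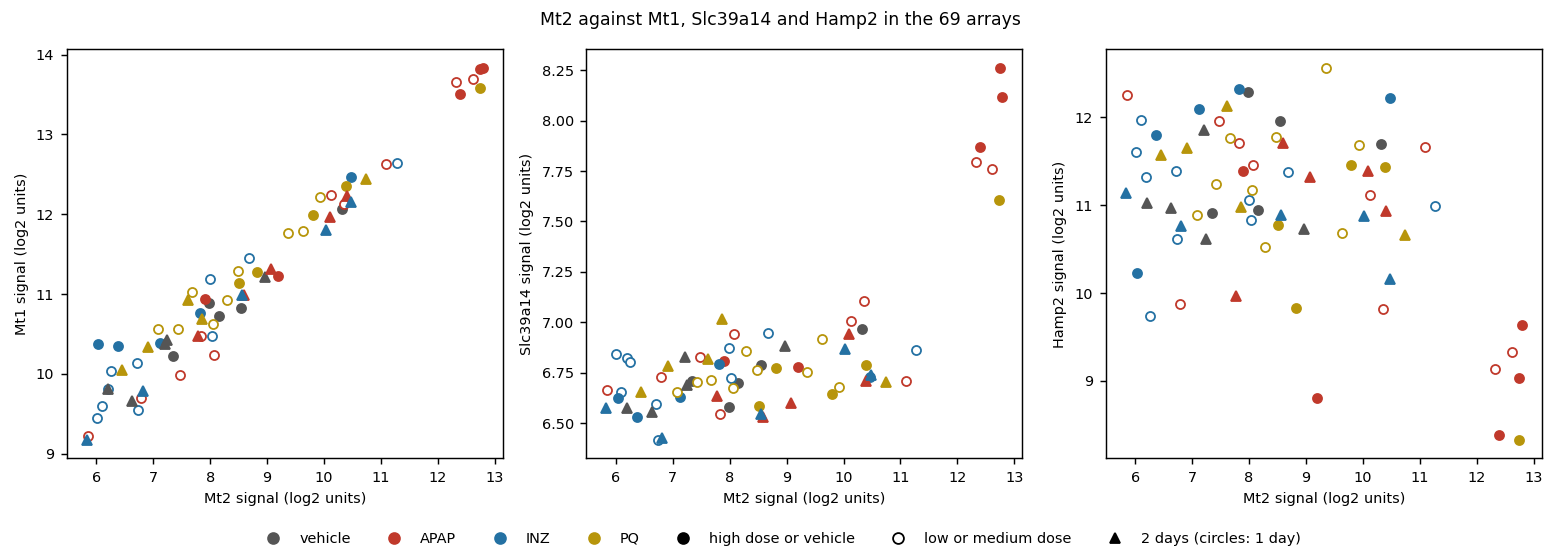
Mt1, Slc39a14 and Hamp2 signal (vertical, log2 units) against Mt2 signal (horizontal) in the 69 arrays; colour gives the compound, filled symbols the high dose or vehicle, and triangles 2 days. Arrays with Mt2 above 12 are the same 6 that have the highest Mt1 and Slc39a14 signals, at least 13.51 and 7.61.

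Markers of inflammatory cells were raised in the livers with extreme values, but not in those alone. In array order, the summed signal of 5 neutrophil markers after high-dose APAP was 6.78, 11.56, 10.64, 9.29 and 11.26 log2 units, against 6.81 to 7.29 in vehicle at 1 day. It was 11.05 in replicate 1 of low APAP, 9.84 in replicate 4 of medium APAP and 10.98 in replicate 1 of high PQ. Arrays not among the extremes of the members also had raised sums. These were 8.90 in replicate 3 of medium APAP and, at 2 days, 8.95 and 9.06 in replicates 1 and 3 of high APAP (vehicle of that day 6.65 to 6.95). Of the neutrophil markers 4 of 5 measured were called higher after high-dose APAP at 1 day, where 14.8% of all probe sets were. Among them was S100a8 (change 4.27, adjusted p = 0.00081 in limma), and 2 of 5 had a vehicle mean below the lowest array median. Of the monocyte and macrophage markers 5 of 6 were called higher, with a summed signal of 10.18 to 12.61 against 10.36 to 10.76, and 2 of the 6 had a vehicle mean below the lowest array median. At 2 days after high-dose APAP, where Hamp2 and Slc39a14 were near vehicle, 5 of these 6 were again called higher (2.85% of all probe sets). Their sums were 11.10 to 12.78, against 10.04 to 10.56 in vehicle of that day, while no neutrophil marker was called.

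Other cell markers were called in both directions after high-dose APAP at 1 day, as were 14.8% (higher) and 15.3% (lower) of all probe sets. The lists are small, so these counts are not read as changes of the cells. Of 8 Kupffer cell markers 1 was called higher (Marco) and 1 lower (Clec4f), with summed signals of 11.47 to 12.44 against 11.70 to 12.11. Of 8 markers of sinusoidal endothelium, the liver's source of BMP ligands, 3 were higher and 2 lower, with sums of 11.13 to 11.50 against 11.32 to 11.40. Of 5 erythroid markers 2 fell, Alas2 and Car1, with sums of 7.32 to 9.17 against 9.34 to 9.57, and of 5 stellate cell markers 1 rose and 2 fell, with sums of 9.44 to 10.05 against 9.58 to 9.85. A vehicle mean below the lowest array median was found for 3 of the 5 erythroid and 2 of the 5 stellate markers. The hepatocyte markers gave 1 of 7 higher and none lower. The part of these cells in the changes of Hamp2, Slc39a14, Mt1 and Mt2 was not tested.

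The genes that carry BMP signals to hepcidin changed in part. Of 21 listed, 18 were measured, and after high-dose APAP at 1 day 6 were called higher and 2 lower, with a median change of 0.02. Over all probe sets 14.8% were called higher and 15.3% lower in this comparison. Those that rose included the SMAD target Id1, from 6.55 ± 0.13 to 8.15 ± 0.64 (change 1.60, adjusted p = 0.0012 in limma), with 5 of 5 arrays above every vehicle array. Smad6 and Smad7, inhibitory SMADs that BMP signals induce, rose by 0.60 and 0.70 (adjusted p = 0.0031 and 0.0064 in limma), each with 5 of 5 arrays above, and the transcription factor Atoh8 by 1.00 (adjusted p = 0.0021 in limma). The share of all probe sets lying entirely above vehicle in this comparison is not given. Such separation is therefore not read as unusual in this list or those below. Fgl1, a secreted hepatocyte protein reported to oppose BMP signals, rose by 1.09 (adjusted p = 0.0031 in limma). Tmprss6, the protease that restrains hepcidin by cutting hemojuvelin, fell by 0.38 (SE 0.12, adjusted p = 0.014 in limma), but 2 arrays lay above and 3 below every vehicle array. In the same livers the Hamp change was 0.28 and that of Hamp2 -2.11.

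Of 8 genes of the interleukin 6 route, 6 were called higher and 0 lower, with a median change of 0.61, where 14.8% of all probe sets were called higher. Socs3, the feedback inhibitor that STAT3 induces, changed by 1.53 (SE 0.57, adjusted p = 0.036 in limma), with 3 of 5 arrays above vehicle. Stat3 itself and Il6st, the shared receptor subunit, each rose by 0.68 (adjusted p = 0.0039 and 0.0017 in limma). Il1b, another inflammatory cytokine, rose by 1.04 and Inhbb, the activin B subunit that can act on SMADs, by 0.51 (adjusted p = 0.015 and 0.040 in limma). Il6 was called higher by 0.55 (adjusted p = 0.0027 in limma) at 3.08, below the lowest array median. In this list 2 of the 8 genes had a vehicle mean below that median.

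Among other genes of iron uptake, storage and release, 15 of 20 were measured, of which 5 rose and 4 fell, with a median change of -0.03. The vehicle mean of 3 of the 15 was below the lowest array median. Over all probe sets 14.8% were called higher and 15.3% lower, and 4.21% lay entirely below vehicle. The genes of both iron regulatory proteins, which bind ferritin and transferrin receptor messages, fell: Aco1 from 10.38 ± 0.03 to 9.99 ± 0.22 (change -0.40, adjusted p = 0.00092 in limma), with 5 of 5 arrays below vehicle, and Ireb2 by 0.58 (adjusted p = 0.0027 in limma). Ceruloplasmin (Cp), the plasma oxidase that loads iron onto transferrin, rose by 0.63 with 5 of 5 arrays above vehicle (adjusted p = 0.0011 in limma), and the metalloreductase Steap4 by 1.43 (adjusted p = 0.0015 in limma). Pcbp1, a chaperone that delivers iron to ferritin, rose by 0.30 with 5 of 5 arrays above (adjusted p = 0.0045 in limma). Lcn2, a siderophore-binding protein that neutrophils also make, rose by 3.91 (SE 1.16, adjusted p = 0.0093 in limma).

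Of 11 genes of heme handling, 6 were called higher and 0 lower, with a median change of 0.30, where 14.8% of all probe sets were called higher. The vehicle mean of 1 of the 11 was below the lowest array median. Hmox1, which opens the heme ring and frees its iron, rose from 5.83 ± 0.17 to 7.58 ± 1.35 (change 1.75, adjusted p = 0.0012 in limma). The heme exporter Flvcr1 rose by 1.22, the heme transporter Slc48a1 by 0.44 and the reductase Blvrb by 0.41 (adjusted p = 0.0014, 0.001 and 0.0012 in limma). Spic, a factor of iron-recycling macrophages, and haptoglobin (Hp) rose by 0.56 and 0.30 (adjusted p = 0.023 and 0.024 in limma). At the medium dose, where 0.243% of probe sets were called and 0.173% were called higher, 2 of these 11 were called higher: Blvrb (change 0.53, adjusted p = 0.0015 in limma) and Slc48a1 (change 0.53, adjusted p = 0.0018 in limma).

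Of 19 genes of zinc handling, 7 were called higher and 1 lower, 11 did not pass, and the median change was 0.19, beside the same 14.8% of all probe sets. Slc39a6 rose by 1.02 with 5 of 5 arrays above vehicle (adjusted p = 0.00082 in limma), although its vehicle mean of 3.97 was below the lowest array median. In this list 4 of the 19 genes had such a vehicle mean. Slc39a7, which releases zinc from the endoplasmic reticulum, rose by 0.73, and Slc39a1 by 0.52 (adjusted p = 0.0036 and 0.0064 in limma). Of the exporters into vesicles, Slc30a7 rose by 0.54, Slc30a5 by 0.52 and Slc30a4 by 0.42 (adjusted p = 0.0046, 0.0067 and 0.011 in limma). Mtf1, the zinc sensor that binds metal response elements, changed by -0.01, and its target Slc30a1 by -0.06 (adjusted p = 0.92 and 0.61 in limma). Of 6 glucocorticoid targets 1 was called higher, near the 14.8% of all probe sets. It was Fkbp5 with 0.78 (adjusted p = 0.0079 in limma), and the median change of the 6 targets was 0.24.

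**Figure D4:**
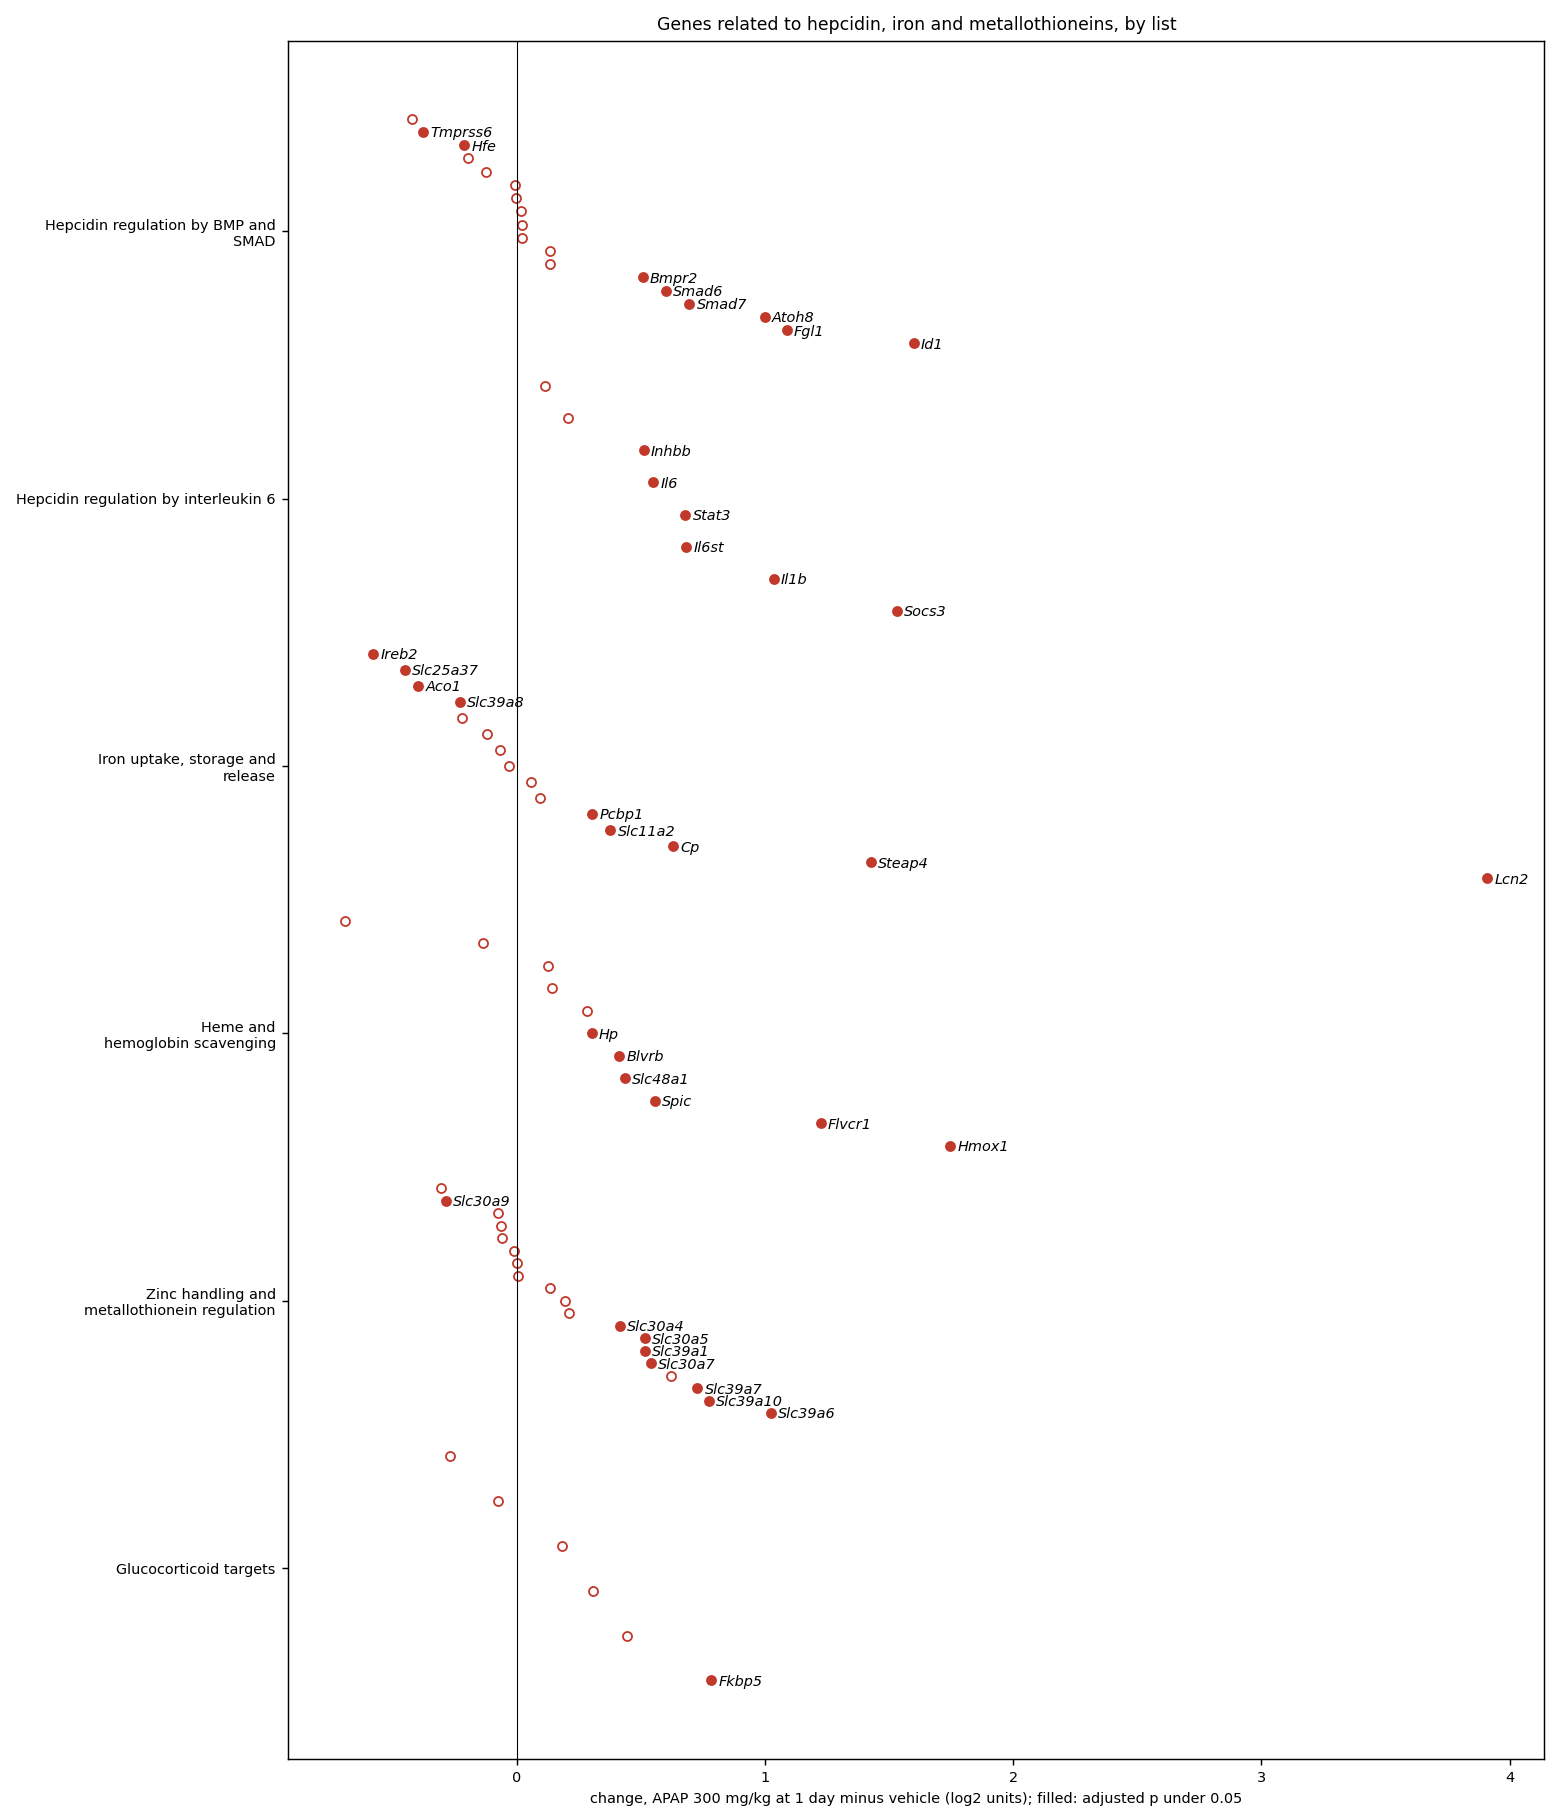
Change after APAP 300 mg/kg at 1 day (log2 units, horizontal) of each measured gene in 6 lists; filled, named points had an adjusted p under 0.05 in limma and open points did not. The interleukin 6 and heme lists have 6 filled points each, all above 0, and the BMP and iron lists have filled points on both sides.

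At 2 days after high-dose APAP, where 4.48% of probe sets were called and 2.85% were called higher, 3 genes of the 6 lists were called, each with 5 of 5 arrays above vehicle. They were Fgl1 (change 1.00, adjusted p = 0.025 in limma), Spic (0.80, adjusted p = 0.0069 in limma) and the biliverdin reductase Blvra (0.28, adjusted p = 0.014 in limma). How many of all probe sets lay entirely above vehicle at 2 days is not given, so this separation is not read as unusual. No gene of the interleukin 6, iron, zinc or glucocorticoid lists was called on that day.

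High-dose groups were then set against each other, which compares the dosed groups and not potency, since the doses in mg/kg differ. Against high-dose INZ at 1 day, high-dose APAP had 4 members higher (12.8% of probe sets) and 1 lower (11.9%, or 24.7% in either direction). Mt2 differed by 3.44 (SE 1.01, adjusted p = 0.0096), Mt1 by 1.80 (adjusted p = 0.033), Slc39a14 by 0.91 (adjusted p = 0.00085) and Hamp2 by -2.29 (adjusted p = 0.0015), all in limma. Fth1 differed by 0.14 (adjusted p = 0.041 in limma) and by 0.07 (adjusted p = 0.34) with arrays centred on their medians.

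Against high-dose PQ at 1 day no member was called in limma, where 0.387% of probe sets were, and 2 of 8 had an unadjusted p under 0.05. The Slc39a14 difference was 0.69 (95% interval 0.31 to 1.07), with an adjusted p of 0.05 after rounding that lay above the threshold. Those of Hamp2, Mt1 and Mt2 were -0.92 (-1.96 to 0.13), 0.60 (-0.69 to 1.89) and 0.95 (-1.06 to 2.97). Without replicate 1 of both groups, which are among the 3 arrays that stood apart, the differences were 1.06 for Slc39a14, 2.40 for Mt2, 0.19 for Fth1 and -1.91 for Hamp2.

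INZ and PQ gave no call of a member against vehicle. Over all probe sets 0.0231% were called for high-dose INZ at 1 day and 0 in the other 7 groups of these compounds. At an unadjusted p under 0.05, 1 member each passed for low INZ (Slc40a1), high INZ at 1 day (Tfrc) and high PQ at 1 day (Hamp2), and none in the other 5.

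For each member, the 3 genes with the most similar profile over the 14 group means were found by Pearson correlation, as a description, since these means share arrays, controls and normalization. Hamp2 was most like Sult1c2 (r = 0.96), Fbp1 (0.95) and Ank3 (0.95). Slc39a14 was most like Cacfd1, Slc30a7 and Hspa1a (0.98 each). Mt1 and Mt2 were most like each other (0.97) and next like Cav2 (0.93 and 0.92). They were followed by Chsy3 for Mt1 (0.92) and Ccdc6 for Mt2 (0.92). Fth1 was most like Atox1 (0.94), Tango2 (0.93) and Prl7b1 (0.92). The genes with flat means gave lower values: Hamp 0.89 with Wasf2, 0.88 with Ankhd1 and 0.87 with Ankrd49, Slc40a1 0.86 with Cln6, 0.79 with B230219D22Rik and 0.78 with Zdhhc20, and Tfrc 0.85 with Rfc1 and Dnajc1 and 0.84 with Lacc1.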

How the data were processed

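The values are log2 signals deposited by the authors, with RMA (background correction, quantile normalization and a summary per probe set) named in the submitters' processing notes; its version and the probe set definitions are not given in the sources used here. No further normalization was applied. The table held 17306 probe sets, named by gene number, of which 16464 carried 1 symbol, 842 none and 0 several. The design text counts 1 more sample than the 69 arrays analysed here.

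Group means of the 69 arrays were estimated by limma 3.58.1 under R 4.3.3 (55 residual and 3.5 prior degrees of freedom), with two-sided tests and Benjamini-Hochberg adjustment over all probe sets. The groups share 1 spread, so p-values are too small for genes that vary more among APAP arrays than elsewhere. The p-values measure the spread between arrays, 1 per mouse, and the number of arrays limits their precision. Exact permutation tests used the 2 groups compared. The fit was tested on simulated data. Alternatives changed the normalization, array weights, dim probe sets, the variance prior, the arrays and the controls. Replicates are numbered in record order. Figures used matplotlib 3.10.9 in Python 3.11.15, and sequences were aligned with Biopython 1.88.

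The text names every member. Of each related list it names up to 6 genes called after high-dose APAP with the smallest adjusted p; Mtf1 and Slc30a1 were added after their values were seen, as were the cell markers named. Members and lists were chosen with earlier results of these data known.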

Additional observations from a re-analysis of the deposited data

Results flagged for a closer look

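In 13 sets of 4 or 5 arrays, among those of 8 genes in 14 groups, 1 array lay further from the others than Dixon's 95% limit allows, which chance gives in about 1 of 20 sets. Of these, 3 were in replicate 1 of the low APAP group: Mt1 at 13.70 (others 9.22 to 10.48), Slc39a14 at 7.76 (6.54 to 6.83) and Fth1 at 13.72 (13.44 to 13.51). Replicate 1 of the high PQ group at 1 day was high for Slc39a14, at 7.61 against 6.58 to 6.79. These are 2 of the arrays that stood apart.

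In the high INZ group at 1 day replicate 1 was low for Hamp2 (10.23, others 11.80 to 12.32) and high for Tfrc (3.57, others 3.09 to 3.23). Replicate 3 of that group was high for Mt1 (12.46, others 10.35 to 10.77) and for Slc40a1 (10.40, others 9.91 to 10.01). Replicate 3 of the low INZ group was high for Mt2 (7.99, others 6.01 to 6.25), and replicate 5 of the medium INZ group for Hamp (12.82, others 12.47 to 12.53).

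Replicate 1 of the medium PQ group was low for Hamp2 (10.89, others 11.68 to 11.78). Fth1 was low in replicate 1 of the low PQ group (13.26, others 13.33 to 13.35) and in replicate 2 of vehicle at 2 days (13.29, others 13.42 to 13.44).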

How the results depend on the processing

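Of 2092 recomputed values no called one changed sign; 125 values called in neither fit did, each with a change smaller than its SE. High-dose APAP at 1 day had 3 members higher and 1 lower, but 0 and 0 in a fit of those 2 groups alone, where the adjusted p in limma was 0.064 for Hamp2, 0.084 for Slc39a14, 0.089 for Mt1 and 0.10 for Mt2. Leaving out 1 array gave 1 to 4 members higher; Hamp2 and Slc39a14 were called in each of those fits. Mt2 also missed the threshold with quantile normalization (adjusted p = 0.053) and with a trended, robust prior (0.054). Medium-dose APAP had 1 member higher, Fth1, with array weights, without the 3 arrays that stood apart, with title numbers up to 190 (58 arrays, meaning not stated) or with pooled vehicles. With array weights or without the 3 arrays, the APAP difference between days had 1 member higher (Hamp2) and 1 lower (Slc39a14). High APAP against high PQ at 1 day had 4 higher with array weights and 3 without the 3 arrays, and 1 lower in both. Fth1 after high-dose APAP was called with array weights, pooled vehicles, title numbers up to 190, without treated replicate 1 (change 0.17, adjusted p = 0.0084) and without the 3 arrays. Tfrc was called there with quantile normalization alone (0.20, adjusted p = 0.047); it was left out with dim probe sets. The 3 arrays that stood apart were picked with their response known, so calls without them support nothing. No paired analysis was possible because each mouse gave 1 array. Tfrc, Il6 and some other genes of the lists lie near background, and Hamp and Fth1 near the top of the scale.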
